A study of Mus musculus with 6 samples.

Results

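Excitatory neuron 4 is 1 of the 32 clusters the authors named among hippocampal nuclei, and its genes mark it as CA3-like pyramidal neurons. All 1065 nuclei that carry this cluster name in the deposited annotation were taken, of 28650 in all (3.72%), and 8.57% of the 12428 excitatory nuclei. Nuclei were isolated from flash-frozen hippocampi and sequenced with a droplet assay that counts transcript ends. The mice were males of the PS19 strain, which carries a human tau transgene with the P301S mutation under the mouse prion promoter, so every group carried the transgene. Mice had a sham procedure or a controlled cortical impact to the right hemisphere (mild traumatic brain injury, TBI), and received an adeno-associated virus (AAV) encoding GFP as the control or VEGF-C, a growth factor for lymphatic vessels. There was 1 library for each of 6 combinations, named by injury, vector and side: on the right, sham and TBI with each vector, and on the left, TBI GFP left and TBI VEGFC left. The labels give neither the age of the mice nor how many went into a library, nor whether left and right hippocampi came from the same mice, so p-values concern these libraries only. No combination has a replicate library. The spread behind the p-values is therefore the departure of the libraries from additive effects of vector and context (injury with side), with information shared across genes. It is not a spread between replicates.

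CA3 pyramidal neurons receive the mossy fibres of dentate granule cells at large synapses rich in kainate-type glutamate receptors, excite one another through recurrent branches, and drive CA1 through the Schaffer collaterals. They are known for burst firing and for their sensitivity to seizures and to injury. The neighbouring CA2 field lacks the large mossy fibre synapses and is marked by other genes, among them Rgs14 and Amigo2.

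The CA3 label rests on Grik4, a kainate receptor subunit, Nectin3, an adhesion molecule of the mossy fibre synapse, Cpne4, a calcium-binding copine, and Galnt3, an enzyme that starts O-linked glycosylation. Grik4 and Nectin3 stood among the leading genes of the cluster, and both encode proteins linked to the mossy fibre synapse, so the 300 bases around the RefSeq start of each are shown (build GRCm38.p6, minus strand). Capitals mark the GC box GGGCGG, searched on both strands. The Grik4 window is chr9:42944322-42944621, and the Nectin3 window is chr16:46496918-46497217.
Grik4: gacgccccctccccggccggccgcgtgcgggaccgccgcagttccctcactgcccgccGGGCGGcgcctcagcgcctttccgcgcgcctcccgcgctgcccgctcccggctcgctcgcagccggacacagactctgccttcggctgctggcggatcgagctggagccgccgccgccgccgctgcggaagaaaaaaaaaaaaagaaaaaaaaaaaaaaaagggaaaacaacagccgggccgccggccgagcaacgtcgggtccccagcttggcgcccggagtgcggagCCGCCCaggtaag
Nectin3: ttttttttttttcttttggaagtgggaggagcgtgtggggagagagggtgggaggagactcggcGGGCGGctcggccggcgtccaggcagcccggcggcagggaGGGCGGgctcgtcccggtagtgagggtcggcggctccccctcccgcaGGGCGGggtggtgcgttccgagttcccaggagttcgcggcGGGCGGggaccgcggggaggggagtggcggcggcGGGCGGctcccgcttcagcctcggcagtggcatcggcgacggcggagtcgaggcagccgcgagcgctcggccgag
Grik4 held 2 GC boxes and Nectin3 held 5, in the sequence as printed above. In Galnt3 there were 3 matches, and the 2 RefSeq starts of Cpne4 held 1 and 0. The motif was found in 35.7% of the 32851 mouse promoter windows of this length. The NeuroD-type E-box CAGATG, searched the same way, was in none of these 5 windows and in 17.2% of all. A match describes these letters only.

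In every library all 4 markers were high in the cluster. Levels are given in CPM, the UMIs (counted RNA molecules) of a gene when the summed UMIs of the cluster in a library are scaled to 1000000. The reads come from transcript ends, so a gene is compared between samples or nuclei and not with another gene. Grik4 was at 986 in Sham GFP right, 922 in Sham VEGFC right, 934 in TBI GFP right, 1085 in TBI VEGFC right, 962 in TBI GFP left and 1164 in TBI VEGFC left. Summed over libraries it was at 998 in the cluster, against 35.6 in Excitatory neuron 1 (CA1-like) and 207 in Excitatory neuron 2 (dentate granule-like). Nectin3 ranged from 307 to 361 over the libraries, against 25.8 and 39.6 in these same clusters. Cpne4 ranged from 801 to 866, against 6.33 and 246, and Galnt3 from 83.6 to 108, against 24.8 and 18.3. Of 8 CA1 markers, Fibcd1 and Mpped1 summed to 6 and 4 UMIs over all 1065 nuclei, while Man1a and Pex5l reached 107 and 103 CPM (628 and 1447 in Excitatory neuron 1); together the 8 summed to 216 to 273 CPM in a library. The 8 dentate granule markers summed to 20.5 to 43.7 CPM, with Prox1 and Dsp at 7 and 1 UMIs in all. The 8 CA2 markers summed to 84.4 to 123 CPM.

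**Figure D1:**
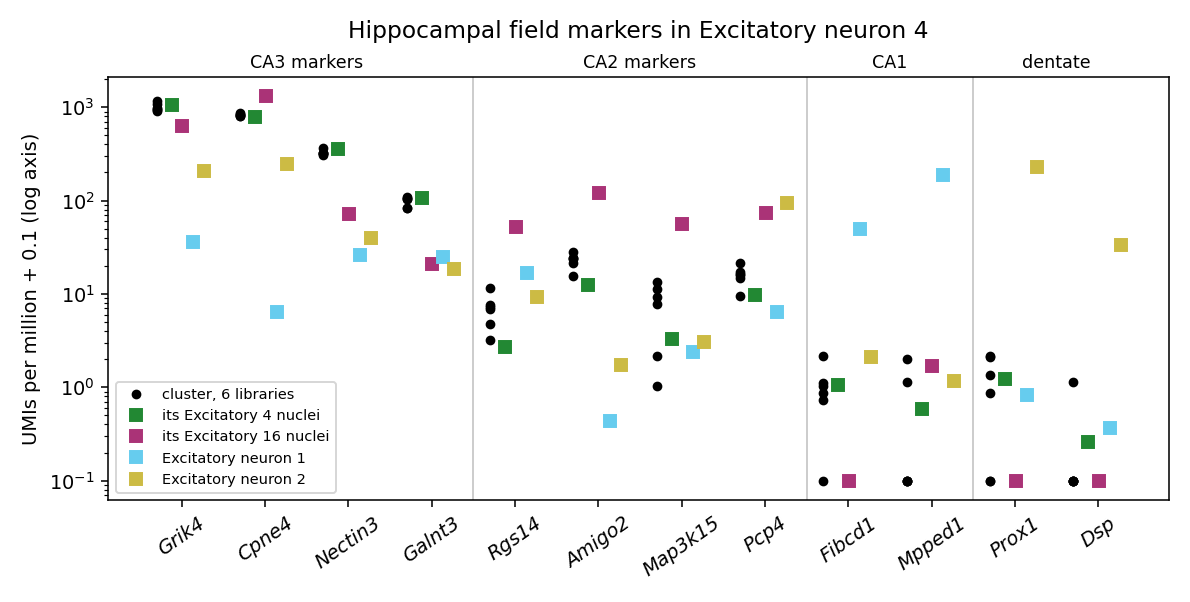
Levels of field markers in CPM (plus 0.1, log axis). Black points are the cluster in its 6 libraries, and squares are sums over libraries for its 2 main second-level clusters and for Excitatory neurons 1 and 2. The CA3 markers lie high in every library (Grik4 922 to 1164), and the CA2 markers lie highest in the Excitatory 16 nuclei or, for Pcp4, below Excitatory neuron 2.

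Because depth differs between nuclei, each was also thinned to 1000 UMIs. At that depth 59.3% of the cluster's nuclei held a Grik4 UMI (exact 95% interval 56.3 to 62.3%; 95.6% unthinned), against 8.89% of 2261 oligodendrocytes, taken for comparison. Whether the oligodendrocytes made this RNA themselves was not tested. Cpne4 was seen in 52.1% of thinned nuclei against 0.531%, Nectin3 in 27.2% against 2.03%, and Galnt3 in 10.2% against 0 of 2261, which allows a share of up to 0.133%. The median depth before thinning was 6496 UMIs in the cluster and 1307 in oligodendrocytes. With all UMIs, 358 nuclei (33.6%) held at least 1 UMI of all 4 markers and 9 held none.

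All 4 markers were among the 15 genes with the largest ratio of the cluster over all other nuclei (genes with at least 50 CPM in it); 2 of the 15 are models with clone names. These ratios describe genes that shaped the clustering and carry no test. Nectin3 was 8.35-fold above the other nuclei and Grik4 8.13-fold. Ccbe1, a secreted factor known for helping to process VEGF-C, stood next at 280 CPM, 7.26-fold above the rest, with 1.60 in Excitatory neuron 1 and 56.7 in Excitatory neuron 2. Further named genes were Cpne9, another copine (6.52-fold), Trhde, which degrades thyrotropin-releasing hormone (5.56-fold), and Kcnq5, an M-current potassium channel subunit (5.44-fold). They went on with Socs2, an inhibitor of cytokine signalling (5.26-fold), Hs3st4, a heparan sulfate sulfotransferase (5.17-fold), Lpl, lipoprotein lipase (5.11-fold), Slit2, an axon guidance ligand (5.03-fold), and Rnf182, a ubiquitin ligase (4.99-fold).

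The cluster was not uniform. In the authors' second clustering of neurons, 956 of its nuclei (89.8%) belong to Excitatory 4, 89 (8.36%) to Excitatory 16, 16 to Excitatory 11 and 4 to Excitatory 6. The Excitatory 16 nuclei carried CA2 markers. Rgs14, a regulator of G-protein signalling, was at 52.3 CPM in them against 2.58 in the Excitatory 4 nuclei, and Amigo2, an adhesion molecule, at 120 against 12.3. Map3k15, a kinase, was at 55.5 against 3.23, and Pcp4, a calmodulin-binding peptide, at 72.9 against 9.68. Their Grik4 (623 against 1048) and Nectin3 (71.3 against 353) were lower, and their Cpne4 (1321 against 776) was higher. They are called CA2-like here, and the cluster is CA3-like for its other main group only.

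Many more genes separated the CA2-like from the Excitatory 4 nuclei, again as a description of clusters. Higher in the CA2-like nuclei were Egfem1, an EGF-like domain gene (1830 against 140 CPM), Asic2, an acid-sensing ion channel (1933 against 161), Adcy1, a calcium-stimulated adenylyl cyclase (320 against 21.6), and Kcnk2, a leak potassium channel (249 against 19.0). The neurotrophin Ntf3 was at 63.4 against 1.61. Lower in them were Cdh9, a cadherin of the mossy fibre synapse (14.3 against 667), Lingo2 (17.4 against 506), Kirrel3, an adhesion molecule of the same synapse (3.17 against 148), and Car10, a neurexin ligand (1.58 against 276). The 16 Excitatory 11 nuclei held 13 of the cluster's 18 UMIs of Calb2 and 4 of its 5 of Drd2, both mossy cell markers, and 259 of the 283 nuclei of that group lie in another cluster, Excitatory neuron 11. The list of 6 mossy cell markers as a whole was not confined to them. It summed to 68.3 to 83.5 CPM in the cluster's libraries and to 60.4 to 82.6 in the Excitatory 4 nuclei alone.

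The cluster's share of a library's nuclei ran from 3.1% in TBI VEGFC left to 4.85% in Sham VEGFC right. It was 3.20% in Sham GFP right (exact 95% interval 2.70 to 3.77%) and 4.85% in Sham VEGFC right (4.32 to 5.42%). After TBI the shares with GFP and VEGFC were 3.92% and 3.64% on the right, and 3.17% and 3.1% on the left. The interval of Sham VEGFC right overlapped with that of TBI GFP right only. Over the 3 contexts the log2 ratio of VEGFC to GFP averaged 0.15 ± 0.39 (SD, n = 3), with an exact two-sided sign-flip permutation p of 1, where 0.25 is the smallest possible. Intervals cover counting error only, and shares depend on how many other nuclei were captured.

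The CA2-like share of the cluster was lower with VEGFC than with GFP in each context. The numbers were 19 of 138 nuclei in Sham GFP right (13.8%) and 28 of 291 in Sham VEGFC right (9.62%), then 16 of 194 (8.25%) and 9 of 156 (5.77%) in the TBI right pair, and 12 of 172 (6.98%) and 5 of 114 (4.39%) in the TBI left pair. The log2 ratio of VEGFC to GFP averaged -0.57 ± 0.09 (SD, n = 3; exact sign-flip permutation p = 0.25, the smallest possible). TBI right against sham right averaged -0.74 ± 0.00096 (SD, n = 2), a design whose smallest p is 0.5. Within each pair the exact 95% intervals overlapped, for example 8.5 to 20.7% against 6.49 to 13.6% in sham. As shares of all nuclei rather than of the cluster, CA2-like nuclei gave log2 ratios of VEGFC to GFP of 0.08 in sham, -0.62 in TBI right and -0.70 in TBI left. Whole-cluster values below are therefore given beside those of the Excitatory 4 nuclei alone where they differ.

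**Figure D2:**
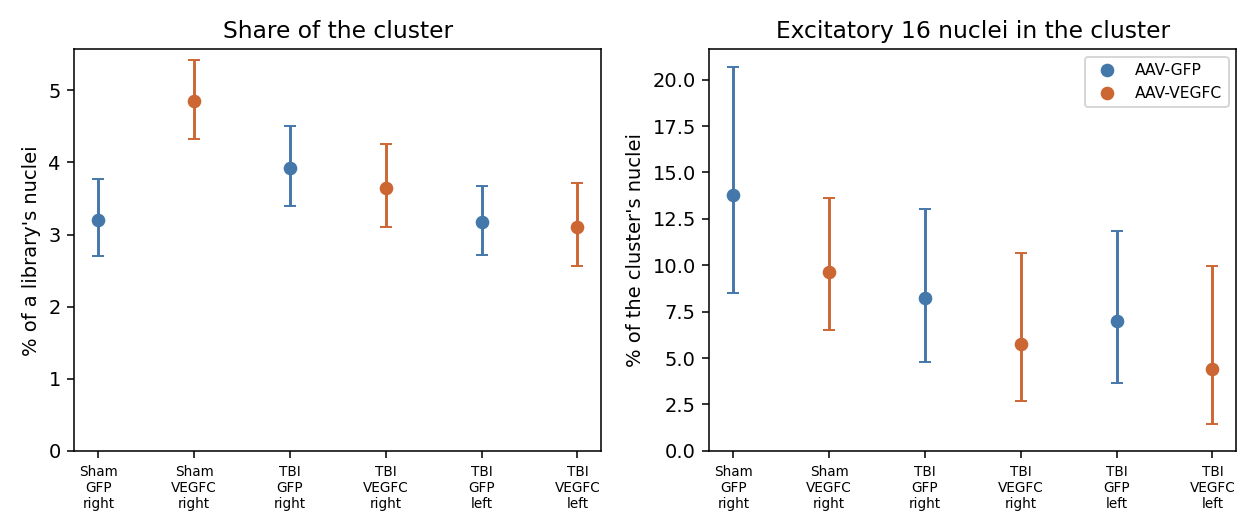
Left, the cluster as a percent of each library's nuclei; right, CA2-like (Excitatory 16) nuclei as a percent of the cluster. Points are 1 library each and bars exact 95% intervals from counting; Sham VEGFC right has the highest cluster share (4.85%), and CA2-like shares run from 13.8% in Sham GFP right to 4.39% in TBI VEGFC left, with overlapping bars within each pair.

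Nuclei differed in depth and score between libraries. Median UMIs per nucleus of the cluster were 5375 in Sham VEGFC right and 6072 to 8907 in the others. Thinned to 1000 UMIs, the medians were 657 to 688 genes per nucleus. The median deposited doublet score was 0.0247 in Sham VEGFC right and 0.0535 to 0.0688 in the other libraries. The cluster's summed UMIs were 960145 to 1580216 per library. Nuclei with UMIs of 2 or more markers of 1 glial or interneuron list were left out in 1 alternative. That kept 712 of the cluster's 1065 nuclei. Summed markers of other cells were low against their own class. Astrocyte markers summed to 331 to 365 CPM (10885 in astrocytes) and microglia markers to 142 to 180 (7148 in microglia). Oligodendrocyte markers summed to 48.5 to 87.3 CPM (16589 in oligodendrocytes), interneuron markers to 33.4 to 49.9 with Lhx6 at 0 (5396), and OPC markers to 5.76 to 15.2 (3738). Choroid plexus markers summed to 125 to 315, led by Ttr. Of the cluster's 10x barcode sequences, 7 occurred in another library too.

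The vector comparison set AAV-VEGFC against AAV-GFP within the 3 contexts (sham right, TBI right, TBI left). In the whole cluster no gene of 10335 passed an edgeR adjusted p of 0.05 (0%; 629 or 6.09% had an unadjusted p under 0.05), and the lowest adjusted p of all was shared by Npas1 and Egfem1. In the Excitatory 4 nuclei alone 5 of 10012 genes passed (0.0499%), 3 higher (0.03%) and 2 lower (0.02%) with VEGFC; the count was 53 without Sham GFP right, 54 without Sham VEGFC right and 2 without TBI GFP right or TBI VEGFC right. The genes higher were Col11a1, Pard3 and Tenm1; those lower were Npas1 and a clone-named antisense transcript, Gm16272, named after its value was seen. This fit was added after seeing the data, and in it edgeR shared its estimate of spread fully across genes. DESeq2 called no gene in these nuclei or in the whole cluster, and edgeR with library totals in place of TMM called none in these nuclei. limma-voom called 3 in these nuclei and 0 in the whole cluster. DESeq2 gave 39 genes in these nuclei and 44 in the whole cluster an unadjusted p under 0.05, so its lack of calls says little. edgeR gave 651 of these genes an unadjusted p under 0.05 (6.5%).

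Npas1, a transcription factor known from interneurons, was lower with VEGFC in every context. In the whole cluster it was at 40.5 CPM in Sham GFP right, 41.5 in TBI GFP right and 38.4 in TBI GFP left, against 16.5, 18.6 and 18.7 in the matching VEGFC libraries. Every GFP library was therefore above every VEGFC library, and no context stood apart. The share of all tested genes whose groups separate in this way is not given, for Npas1 or for genes below. The log2 fold was -1.14 ± 0.22 (SE; edgeR adjusted p = 0.0747) in the whole cluster and -1.17 ± 0.24 in the Excitatory 4 nuclei (edgeR adjusted p = 0.00514; 0.0131 to 1 over 9 alternatives). The gene (chromosome 7, 16455721 to 16477728, minus strand, mm10) rests on 198 UMIs, between 18 and 54 a library. Its fold was -0.77 ± 0.21 in Excitatory neuron 1 (edgeR adjusted p = 0.337) and -1.41 ± 0.30 in Excitatory neuron 2 (0.00657), and the differences of folds from the cluster did not pass (edgeR adjusted p = 0.982 and 0.979). Interneuron markers, whose sum is given above, were 33.4, 35.3 and 49.9 with GFP and 41.8, 33.6 and 37.5 with VEGFC.

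Pard3, a cell polarity scaffold (chromosome 8, 127063893 to 127612286), was higher with VEGFC. Within the Excitatory 4 nuclei it went from 25.4 CPM to 39.2 in sham, from 35.4 to 63.8 in TBI right and from 25.9 to 72.8 in TBI left, GFP first. The 3 VEGFC libraries lay above the 3 GFP libraries, with a log2 fold of 1.03 ± 0.20 (SE; edgeR adjusted p = 0.00123; 0.000142 to 1 over 9 alternatives). In the whole cluster the fold was 0.82 ± 0.19 and did not pass (edgeR adjusted p = 0.377). The call was lost without any of the 4 TBI libraries in turn. Leaving out 1 library of a pair also takes its partner out of the vector comparison, so either choice is nearly the same check.

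Col11a1, a fibrillar collagen chain (chromosome 3, 114030540 to 114220718), was at 244 CPM in Sham GFP right, 234 in TBI GFP right and 178 in TBI GFP left. With VEGFC it was at 251, 458 and 269. TBI VEGFC right stood above the rest, and the sham pair was nearly level. The log2 fold of 0.58 ± 0.11 passed (edgeR adjusted p = 0.00123; 6.93e-11 to 1 over 9 alternatives) but was 0.33 without TBI VEGFC right or without TBI GFP right, and then did not pass. The CA2-like nuclei held more of it (650 against 272), and the whole-cluster fold was 0.44 (edgeR adjusted p = 0.605).

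Tenm1, a teneurin involved in synaptic partner choice (X chromosome, 42527866 to 43429126), differed mainly between the sham libraries: 36.3 CPM with GFP and 129 with VEGFC. The other pairs were 81.2 and 85.8 in TBI right, then 88.5 and 97.8 in TBI left. Its log2 fold of 0.63 ± 0.15 (edgeR adjusted p = 0.0431; 0.0223 to 1 over 9 alternatives) fell to 0.16 without either sham library. Gm16272 was at 38.7, 28.5 and 21.6 with GFP and 9.97, 3.99 and 25.03 with VEGFC, and 11.2% of its 125 UMIs came from a single nucleus.

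Egfem1 had a different fold in the whole cluster and in the Excitatory 4 nuclei. In the whole cluster it was at 468, 324 and 305 CPM with GFP (sham right, TBI right, TBI left) and at 316, 250 and 176 with VEGFC, a log2 fold of -0.54 ± 0.10 (edgeR adjusted p = 0.0747). Restricted to the Excitatory 4 nuclei the same libraries gave 186, 133 and 126 against 157, 146 and 88.7, and the fold was -0.16 ± 0.13 (edgeR adjusted p = 0.92). Within the CA2-like nuclei alone it was also lower with VEGFC in each pair, at 1976, 2032 and 2158 with GFP and 1598, 1751 and 1252 with VEGFC. The part of the CA2-like share in the whole-cluster fold was therefore not separated from a change within those nuclei. Asic2 was at -0.31 ± 0.11 in the whole cluster and 0.12 ± 0.12 in the Excitatory 4 nuclei (edgeR adjusted p = 0.653 and 0.945). Bcl11b, a transcription factor at 196 CPM in CA2-like and 23.2 in Excitatory 4 nuclei, gave -0.66 ± 0.19 and -0.18 ± 0.27 (0.605 and 0.973).

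**Figure D3:**
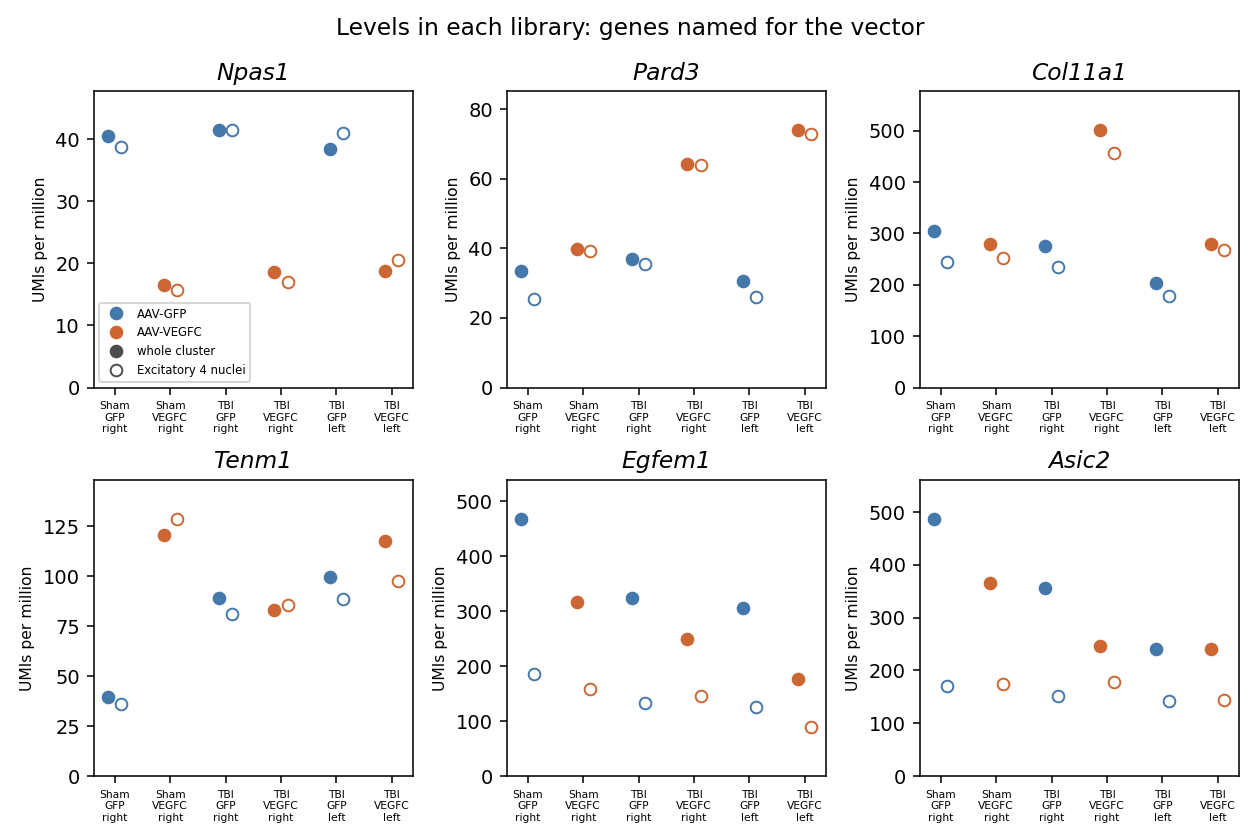
CPM of 6 genes in each library, filled for the whole cluster and open for its Excitatory 4 nuclei, blue for AAV-GFP and orange for AAV-VEGFC. Npas1 splits by vector in all 3 contexts (38.4 to 41.5 against 16.5 to 18.7), while Egfem1 and Asic2 lie far lower in the Excitatory 4 nuclei.

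By the naming rule, 5 genes in each direction with the smallest p in the whole cluster were taken, none past the threshold. Higher with VEGFC beside Pard3 were Cpsf4l (log2 fold 1.31 ± 0.29), Unc5d, a netrin receptor (0.49 ± 0.11), Timp4, a metalloproteinase inhibitor (0.66 ± 0.16), and Tmem63c, a mechanosensitive channel (0.64 ± 0.15), with edgeR adjusted p of 0.377 to 0.415. Unc5d was at 128, 137 and 131 CPM with GFP and at 177, 184 and 185 with VEGFC, so its groups did not overlap, with no share of all genes beside this. Its fold in the Excitatory 4 nuclei was 0.35 ± 0.12 (edgeR adjusted p = 0.425). Lower beside Npas1 and Egfem1 were Zfp46 (-1.16 ± 0.30), Plch2, a phospholipase C (-0.52 ± 0.14), and Vps37b, of the ESCRT machinery (-1.07 ± 0.29), each at an edgeR adjusted p of 0.605. In Excitatory neuron 1 Cpsf4l (0.98 ± 0.20) and Zfp46 (-1.19 ± 0.19) passed (edgeR adjusted p = 0.0404 and 0.00561). In Excitatory neuron 2 they gave 0.29 and -0.43 (0.946 and 0.808). Plch2 was higher in CA2-like than in Excitatory 4 nuclei (250 against 60.0 CPM). In the latter alone it gave -0.43 ± 0.17 (edgeR adjusted p = 0.548). Jun, an immediate early transcription factor, was at 54.5, 27.6 and 36.7 with GFP in the Excitatory 4 nuclei and at 23.5, 17.9 and 21.6 with VEGFC (-0.89 ± 0.24, edgeR adjusted p = 0.123), and 10.497% of its UMIs were in 1 nucleus.

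The genes of the treatment itself were hardly seen. Vegfc summed to 27 UMIs in the cluster, and its receptors Flt4 and Kdr to 2 each. These counts do not measure the delivered transgene, whose sequence was not looked for. Nrp2, a co-receptor for VEGF-C and semaphorins, was at 119, 121 and 126 CPM with GFP and 124, 161 and 151 with VEGFC (log2 fold 0.28 ± 0.12, edgeR adjusted p = 0.77). Nrp1 gave 0.09 ± 0.10 (0.943). Mapt, the mouse tau gene, ranged only from 302 to 355 over the 6 libraries (0.15 ± 0.10, edgeR adjusted p = 0.873). Whether reads of the human transgene were counted in it was not tested.

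The injury comparison set TBI right against sham right. Of 10335 genes, 2 passed in the whole cluster (0.0194%; 574 or 5.55% had an unadjusted p under 0.05), both higher after TBI and both clone-named, so they stand outside the naming rule and are named after their values were seen. Among 10012 genes in the Excitatory 4 nuclei 4 passed (0.04%; 514 or 5.13% at an unadjusted p under 0.05), those 2, Adamtsl1 and, lower, the clone-named 2810013P06Rik. That count was 46 without Sham GFP right, 12 without Sham VEGFC right, 2 without TBI GFP right and 1 without TBI VEGFC right. In the whole cluster DESeq2 called 1 gene.

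AC149090.1, annotated as protein-coding on an unplaced scaffold, was at 326 CPM in Sham GFP right and 272 in Sham VEGFC right. It was at 707 in TBI GFP right, 597 in TBI VEGFC right, 722 in TBI GFP left and 658 in TBI VEGFC left. All 4 TBI libraries, on both sides, were above both sham libraries. The log2 fold of TBI right over sham right was 1.16 ± 0.12 (edgeR adjusted p = 1.31e-06), and it passed under all 17 alternatives, with folds of 1.09 to 1.33 and adjusted p of 1.06e-18 to 0.00798. In Excitatory neuron 1 the fold was 0.99 ± 0.10 and in Excitatory neuron 2 it was 0.52 ± 0.09 (edgeR adjusted p = 1.15e-08 and 3.1e-05). The difference between the cluster and Excitatory neuron 2, 0.64 ± 0.11, passed (edgeR adjusted p = 9.39e-05), but not without Sham VEGFC right (0.49), TBI GFP right (0.67) or TBI VEGFC right (0.60), at adjusted p of 0.48, 0.072 and 0.21. Genes on unplaced scaffolds can share reads with near-identical copies elsewhere, so its count is uncertain.

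Gm16105 (chromosome 10, 81461159 to 81462972) lies antisense within Celf5, an RNA-binding protein gene. It was at 63.7 and 50.6 CPM in the sham libraries and at 105 to 109 in the 4 TBI libraries, with a log2 fold of 0.94 ± 0.17 (edgeR adjusted p = 0.0367; 0.000512 to 1 over 17 alternatives, past the threshold in 8). The labels do not say whether counting used strand, so reads of the gene and its partner cannot be told apart. Celf5 itself gave 0.08 ± 0.15 (edgeR adjusted p = 0.995). The rise of Gm16105 also passed in Excitatory neuron 1 (0.68 ± 0.11, edgeR adjusted p = 0.00182) and in Excitatory neuron 2 (0.83 ± 0.15, edgeR adjusted p = 7.14e-05). Its differences of folds from the cluster did not pass (edgeR adjusted p = 0.961 and 1).

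Adamtsl1, a secreted matrix protein of the ADAMTS-like family (chromosome 4, 85514172 to 86428385), was at 60.5 and 78.4 CPM in the sham libraries in the Excitatory 4 nuclei, and at 128 and 115 in TBI GFP right and TBI VEGFC right. The TBI left libraries, at 98.2 and 116, were also above both sham libraries. The log2 fold was 0.81 ± 0.17 there (edgeR adjusted p = 0.00778; 0.0132 to 1 over 9 alternatives) and 0.80 ± 0.16 in the whole cluster (edgeR adjusted p = 0.131). Without Sham GFP right, TBI GFP right or TBI VEGFC right it did not pass in the Excitatory 4 nuclei (0.69, 0.60 and 1.07). 2810013P06Rik fell there by 1.06 on the log2 scale (SE 0.24, edgeR adjusted p = 0.0326), and 8 of 9 alternatives ended that call.

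Ulk4, a pseudokinase, was at 27.3 and 19.0 CPM in the sham libraries and at 40.1 to 53.1 in the 4 TBI libraries. Its log2 fold for TBI right over sham right was 1.06 ± 0.25 (edgeR adjusted p = 0.36), beside 0.85 ± 0.14 in Excitatory neuron 1 and 0.93 ± 0.22 in Excitatory neuron 2, where it passed (edgeR adjusted p = 0.000785 and 0.0202). The differences of folds did not pass (edgeR adjusted p = 0.998 and 1). Nnat, a small membrane proteolipid, was at 172 in Sham GFP right and 273 in Sham VEGFC right, against 340 and 308 in the TBI right libraries (0.58 ± 0.14, edgeR adjusted p = 0.399). Prkcd, a protein kinase C, gave 0.92 ± 0.24, and Alcam, an adhesion molecule, 0.57 ± 0.16 (edgeR adjusted p = 0.563 and 0.688).

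Among genes with lower values after TBI, none passed in the whole cluster. Bcl11b was at 77.9 and 43.7 CPM in the sham libraries and 33.0 and 26.1 in the TBI right libraries (-1.0 ± 0.22, edgeR adjusted p = 0.221). Without the CA2-like and other nuclei it gave -0.84 ± 0.32 (0.727). Gpc5, a glypican, gave -1.18 ± 0.28, and Mfap1a, a splicing factor, -1.31 ± 0.33 (edgeR adjusted p = 0.315 and 0.531). Gpc5 was higher in CA2-like than in Excitatory 4 nuclei (98.2 against 18.1 CPM). In the latter alone it gave -0.85 ± 0.37 (edgeR adjusted p = 0.844), and 7.47% of its UMIs in the cluster were in 1 nucleus. Asic2 gave -0.47 ± 0.13 in the whole cluster and -0.04 ± 0.15 in the Excitatory 4 nuclei (edgeR adjusted p = 0.688 and 0.998). The CA2-like share moved the same way, from 13.8% and 9.62% in sham to 8.25% and 5.77%; its part in these values was not tested beyond the fit without those nuclei.

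**Figure D4:**
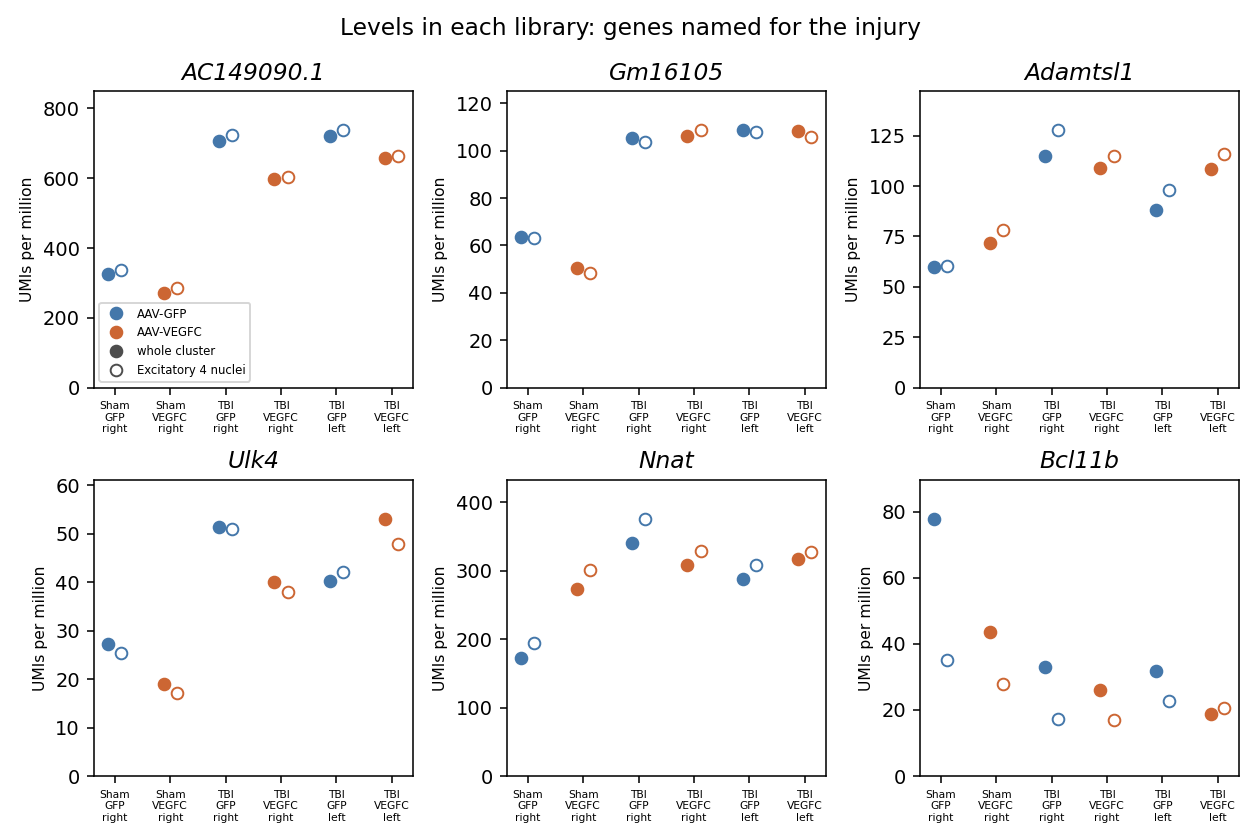
CPM of 6 genes in each library, filled for the whole cluster and open for its Excitatory 4 nuclei, by vector colour. AC149090.1 and Gm16105 are higher in all 4 TBI libraries than in both sham libraries (597 to 722 against 272 and 326 for the former).

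The side comparison set the left hippocampus, opposite the impact, against the right after TBI, and shares the TBI right libraries with the injury comparison. No gene of 10335 passed in the whole cluster with edgeR (0%; 411 or 3.98% at an unadjusted p under 0.05). DESeq2 called none either and gave only 17 genes an unadjusted p under 0.05. Of 10012 genes in the Excitatory 4 nuclei 1 passed (0.00999%; 433 or 4.32% at an unadjusted p under 0.05): Col11a1 was lower on the left, at 178 and 269 CPM against 234 and 458 on the right (-0.62 ± 0.14, edgeR adjusted p = 0.0462; 0.000151 to 1 over 9 alternatives). The fold was -0.26 without TBI VEGFC right and the groups overlapped; the call was also lost without any other TBI library.

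Frmd5, a FERM-domain protein, had the smallest p among lower values, with 26.9 and 28.0 CPM on the right and 9.60 and 8.33 on the left (-1.63 ± 0.36, edgeR adjusted p = 0.851). It was also higher in CA2-like than in Excitatory 4 nuclei (112 against 13.9), and gave -1.94 ± 0.49 without the former (edgeR adjusted p = 0.359). Fyb2, an adaptor protein, gave -1.21 ± 0.33 in the whole cluster and -1.08 ± 0.58 in the Excitatory 4 nuclei. It too was higher in CA2-like nuclei (162 against 10.7 CPM). Cntn5, a contactin, had the smallest p among higher values (1.59 ± 0.39, edgeR adjusted p = 1), at 15.4 and 2.80 on the right and 35.5 and 21.9 on the left. Of its 93 UMIs in the cluster, 60 came from the 16 Excitatory 11 nuclei, which numbered 4 and 1 in the right TBI libraries and 6 and 4 in the left. Cntn5 in the Excitatory 4 nuclei was at 3.55 CPM and too low to be tested.

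Gene lists were read by role. No member of any list passed the threshold in the whole cluster in any of the 3 comparisons, beside 0%, 0.0194% and 0% of all genes. At the mossy fibre synapse, 14 of 20 tested genes had values above 0 with VEGFC (median log2 fold 0.10; 0.002 over all genes) and 15 of 20 after TBI (0.06; 12 of 20 in the Excitatory 4 nuclei, 0.05). Kirrel3 was at 87.0, 138 and 174 CPM with GFP (sham right, TBI right, TBI left) and 192, 125 and 191 with VEGFC. VEGFC over GFP gave 0.39 ± 0.15 (edgeR adjusted p = 0.697), and the TBI right pair went the other way. Of the 1067 Kirrel3 UMIs, 125 came from the 16 Excitatory 11 nuclei, which numbered 1 in Sham GFP right and 0 in Sham VEGFC right. Tenm2, a postsynaptic teneurin, was at 2731 in Sham GFP right and 3246 to 3860 in the rest (0.21 ± 0.08, 0.741). Afdn, which anchors nectins to actin, was at 239 and 234 in the sham libraries and at 273 and 285 in the TBI right libraries (0.27 ± 0.12, 0.868).

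Kainate receptor genes are a feature of these cells. Of 5 tested, all 5 had values above 0 with VEGFC, with a median of 0.14, and 4 of 5 after TBI. Grik2, a core subunit, ranged from 1190 to 1494 CPM over libraries, and Neto1, an auxiliary subunit, from 563 to 657, against 40.4 in Excitatory neuron 1 and 208 in Excitatory neuron 2. Grik1 was nearly absent, with 11 UMIs in all. Grik4 gave 0.16 ± 0.09 with VEGFC and Neto2 0.35 ± 0.18 (edgeR adjusted p = 0.855 and 0.83).

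Among AMPA receptor genes 4 of 10 were above 0 with VEGFC (median -0.02) and 5 of 10 after TBI (0.03). The Excitatory 4 nuclei gave 6 of 10 (0.08) and 7 of 10 (0.06), so the sign of the vector median was not kept. The auxiliary subunits Cacng2 and Cacng3 were the 2 with the smallest p after TBI. Cacng2 was at 50.6 and 39.9 in sham and 59.1 and 76.4 in TBI right (0.65 ± 0.21, edgeR adjusted p = 0.834), and Cacng3 at 31.4 and 27.2 against 44.5 and 41.0 (0.59 ± 0.23, 0.834). Gria3, a pore subunit, was at 609, 677 and 652 with GFP and 564, 543 and 549 with VEGFC (-0.20 ± 0.09, 0.811). Its groups did not overlap, again with no share of all genes beside this.

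Channel genes stayed near 0 as lists: 14 of 23 potassium channel genes were above 0 with VEGFC (median 0.07) and 11 of 23 after TBI (-0.01), and sodium and calcium channel genes gave 10 of 19 in both (0.02 and 0.06). After TBI the Excitatory 4 nuclei gave 11 of 21 (0.04) and 13 of 18 (0.10) for these lists. Kcnc2, a fast delayed rectifier, was at 375 and 381 in sham and 441 and 488 in TBI right (0.33 ± 0.12, edgeR adjusted p = 0.834). Scn3b, a sodium channel beta subunit, was at 46.5 and 39.2 against 60.6 and 62.4 (0.57 ± 0.20, 0.834), and Scn2a, a pore subunit, at 316 and 300 against 266 and 234 (-0.28 ± 0.12, 0.853). Kcnt1, a sodium-activated potassium channel that is higher in CA2-like nuclei (53.9 against 3.55), had the lowest value with VEGFC (-1.45 ± 0.47, 0.637).

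Immediate early genes, which neurons switch on with activity, had 2 of 16 values above 0 after TBI (median log2 fold -0.40) and 11 of 16 on the left against the right (0.27). The Excitatory 4 nuclei gave 3 of 15 (-0.46) and 10 of 15 (0.04), a side median near 0. Egr3 was at 28.3 and 19.0 in sham and 14.6 and 12.1 in TBI right (-0.78 ± 0.33, edgeR adjusted p = 0.836). Their levels summed to 753 CPM in Sham GFP right, 616 in Sham VEGFC right, 573 in TBI GFP right and 629 in TBI VEGFC right. Sham GFP right was the highest and enters both the vector and the injury comparison. With VEGFC 4 of 16 were above 0 (median -0.32), and 3 of 15 in the Excitatory 4 nuclei (-0.37).

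Genes of the unfolded protein response, which handle misfolded proteins in the endoplasmic reticulum, had 16 of 18 values above 0 with VEGFC (median 0.24) and 14 of 18 after TBI (0.19), and 7 of 18 on the left against the right (-0.04). Pdia6, a disulfide isomerase, was at 44.5, 46.8 and 45.1 with GFP and 56.3, 69.0 and 55.2 with VEGFC (0.43 ± 0.16, edgeR adjusted p = 0.687). Canx, the chaperone calnexin, was at 100.1, 83.7 and 96.0 against 115, 121 and 109 (0.33 ± 0.13, 0.697). Both were picked by smallest p and had groups that did not overlap. How many of all tested genes did the same is not given, so the separation adds no support. Xbp1, a transcription factor of the response, was at 17.2 and 15.2 in sham, 26.1 in both TBI right libraries, and 32.7 and 33.3 in TBI left (TBI right over sham right 0.73 ± 0.29, 0.834). Sham GFP right had the lowest sum of the list, 957 CPM, against 1043 to 1249 elsewhere.

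Mitochondrial transcripts summed to 1607, 1545 and 1299 CPM with GFP and to 1039, 1136 and 1517 with VEGFC, so the TBI left pair went the other way from the other 2. In the Excitatory 4 nuclei 1 of 10 had a value above 0 with VEGFC (median -0.33). The nuclear genes of oxidative phosphorylation gave 26 of 44 (0.05), and 21 of 44 in the Excitatory 4 nuclei (-0.003). Tau and its kinases gave 14 of 22 with VEGFC (0.04), 12 of 22 after TBI (0.01) and 13 of 22 on the left (0.02). Cdk5, a tau kinase, had the smallest p of them with VEGFC (-0.37 ± 0.19, edgeR adjusted p = 0.839).

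**Figure D5:**
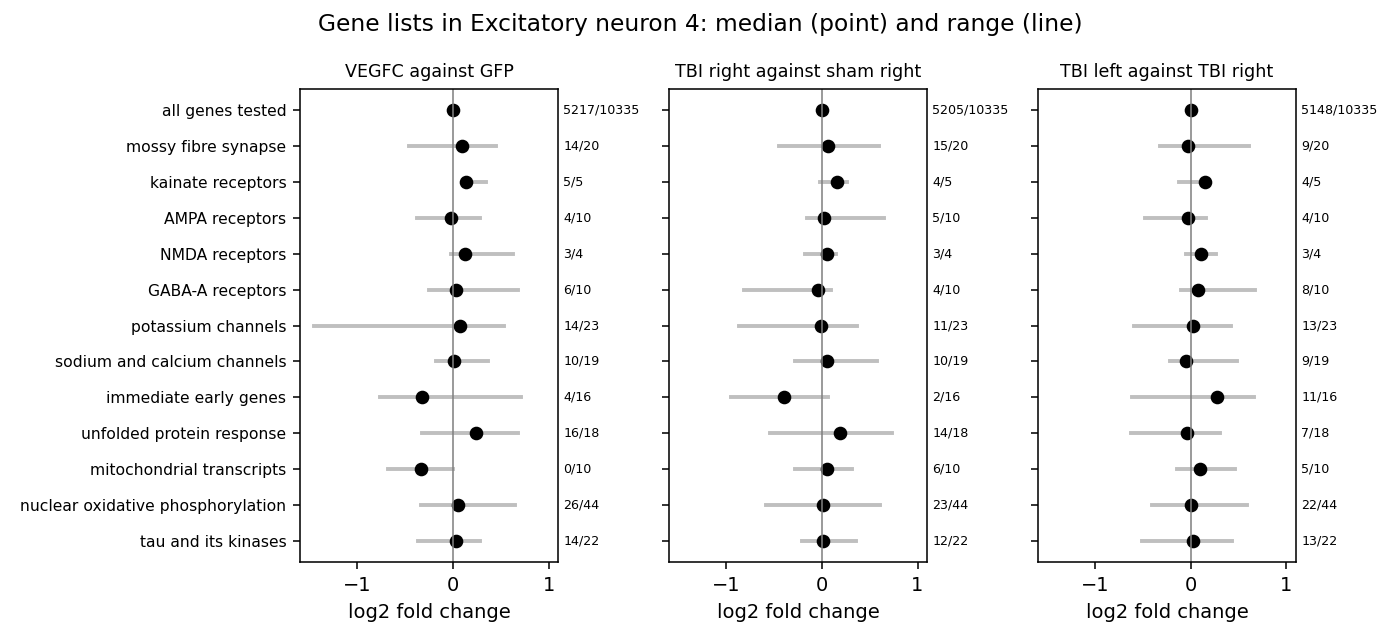
Median log2 fold (point) and range (line) of gene lists in the whole cluster for the 3 comparisons, with the number of members above 0 of those tested at the right of each panel. The point of all tested genes lies at 0; immediate early genes (2 of 16 above 0 after TBI) and the unfolded protein response (16 of 18 above 0 with VEGFC) lie to opposite sides of it, and mitochondrial transcripts lie at -0.34 with VEGFC.

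Folds of the cluster were compared with those of Excitatory neuron 1 and Excitatory neuron 2 in a model with library as a block. For the vector, 4 genes of 11573 differed from Excitatory neuron 1 (0.0346%) and 7 of 10728 from Excitatory neuron 2 (0.0652%). March1, a ubiquitin ligase, was level in the cluster (0.05 ± 0.09) and lower with VEGFC in Excitatory neuron 2 (-0.80 ± 0.12), a difference of 0.85 ± 0.13 (edgeR adjusted p = 4.03e-07) that was 0.51 without either sham library (0.26 and 0.27). Pard3 differed from Excitatory neuron 2 by 0.83 ± 0.19 (0.0196) and by 1.04 in the Excitatory 4 nuclei (0.00281). Without any of the 4 TBI libraries the Pard3 difference was 0.69 to 0.75 and did not pass. Leaving out either library of a pair was again nearly the same check. Egfem1 (-0.48 and -0.44 from the clusters in turn), Asic2 (-0.43 from Excitatory neuron 1) and Bcl11b (-0.94 from Excitatory neuron 2) passed in the whole cluster and not in the Excitatory 4 nuclei.

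For the injury, 3 of 11573 genes differed from Excitatory neuron 1 (0.0259%). Nnat had a difference of 0.81 ± 0.15 (edgeR adjusted p = 0.000642), from 0.58 in the cluster and -0.25 in Excitatory neuron 1, and Adamtsl1 0.82 ± 0.19 (0.0359), from 0.80 and -0.05. Lingo2, a leucine-rich repeat adhesion protein, was level in the cluster (-0.02) and fell in Excitatory neuron 1 (-0.60 ± 0.10, edgeR adjusted p = 0.00219), a difference of 0.58 ± 0.11 (0.000954). All 3 also passed in the Excitatory 4 nuclei (edgeR adjusted p = 0.0033, 0.0316 and 0.00878). Without Sham GFP right none of the 3 passed, with differences of 0.28, 0.50 and 0.55 in the same order. Nnat was also lost without TBI GFP right (0.25), Lingo2 without Sham VEGFC right (0.61) or TBI VEGFC right (0.44), and Adamtsl1 without Sham VEGFC right (1.25), TBI GFP right (0.56) or TBI GFP left (0.82).

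From Excitatory neuron 2, AC149090.1 alone differed for the injury (0.00932%) and Cntn5 alone for the side (0.00932%; 1.67 ± 0.35, edgeR adjusted p = 0.0237), the latter with the Excitatory 11 nuclei described above. For the side, 3 genes differed from Excitatory neuron 1 (0.0259%), all abundant in the CA3-like nuclei. Lrrtm4, a synaptic organizer, differed by -0.77 ± 0.14 (edgeR adjusted p = 0.000134), Mctp1, a calcium-binding synaptic protein, by -0.74 ± 0.15 (0.00374) and Slit2 by -0.82 ± 0.18 (0.0362). Slit2 was at 595 and 539 on the right and 496 and 589 on the left in the cluster, and at 21.9 and 31.1 against 31.4 and 58.0 in Excitatory neuron 1. Lrrtm4 was at 74.0 and 59.1 against 103 and 92.0 there, beside 738 and 828 against 732 and 628 in the cluster. Lrrtm4 lost its call without TBI VEGFC right (-0.46) or TBI VEGFC left (-0.70), Mctp1 without those (-0.58 and -0.50) or Sham VEGFC right (-0.74), and Slit2 without any library but TBI GFP left (-0.52 to -1.09).

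The change of the vector fold from sham to TBI rests on 4 right-side libraries, 1 a combination, so there is no test and intervals cover counting only. Of 3283 genes with at least 50 UMIs in each, Ttr had the lowest difference of log2 folds, TBI minus sham. Its level was 121 in Sham GFP right, 221 in Sham VEGFC right, 188 in TBI GFP right and 79.2 in TBI VEGFC right, a difference of -2.12 (95% interval -2.58 to -1.65). Ttr encodes transthyretin and defines the choroid plexus, whose markers summed to 171, 315, 259 and 125 in these libraries. In Excitatory neuron 1 Ttr was at 161, 268, 252 and 119 in the same order, the same ranking of libraries. Apoe, the main lipid carrier of glia (-1.47, -1.91 to -1.02), and Cst3, the protease inhibitor cystatin C (-1.42, -1.80 to -1.04), were also higher with VEGFC in sham and lower in TBI right. In Excitatory neuron 1 Apoe was at 160, 243, 211 and 156 and Cst3 at 194, 327, 306 and 218 in the same order, with the same signs. The part of choroid plexus or glial RNA in these values was not tested. The highest differences were those of Bbx (1.18, 0.50 to 1.85) and Dpy19l3 (1.17, 0.48 to 1.86).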

How the data were processed

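The deposited matrix holds raw UMI counts of 26049 genes in 28650 nuclei, all whole. The authors' metadata give each nucleus its library, cluster, second-level cluster, percent of mitochondrial UMIs (at most 0.999) and doublet score (at most 0.099). Cell Ranger 7.0.1, Scanpy and mm10 are named per the submitters' processing notes. Settings and strand use were not given in the sources used here. Each nucleus had over 1000 UMIs, and no doublet caller was run because the deposited scores end at that limit. In 1827 nuclei the UMI sum fell short of the deposited total.

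Counts of the cluster were summed per library and fitted with edgeR 4.0.16 and its quasi-likelihood F test (filterByExpr, TMM, a context term and a vector term, 2 residual degrees of freedom, Benjamini-Hochberg over all tested genes, threshold 0.05). SEs were taken as the size of the log2 fold over the root of F. In the fit of the Excitatory 4 nuclei, chosen after seeing the data, the prior degrees of freedom were infinite, so a gene's own spread had no weight. Alternatives used DESeq2 1.42.0, limma-voom (limma 3.58.1) and other scalings, filters, nuclei and left-out libraries. In simulated data 173 of 200 genes changed 2-fold were recovered for the vector (10107 genes tested), 135 for injury (10098) and 133 for side (10076). Wrong calls were 11, 6 and 1 in the same order. With a change of 1.5-fold, 83, 50 and 43 of 200 were recovered. Only genes with higher counts were changed, and each drew its spread from the trend over genes, so these counts do not cover weaker genes.

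By the naming rule, up to 12 genes per direction past the threshold (mean at least 10 CPM, the same direction in every pair) were named, with the 5 of smallest p added where fewer than 5 passed, and up to 4 members per list. Members and lists were chosen with earlier results of these data known. Confidence intervals of shares are exact Clopper-Pearson intervals (95%). A gene that the rule names is not reported here.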

Additional observations from a re-analysis of the deposited data

Results flagged for a closer look

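The following results were noted because an effect differed between groups under the same contrast, with no explanation offered. Vector folds in Excitatory neuron 4 minus those in Excitatory neuron 1 passed the test of the difference for Kcnt2 (0.45), Egfem1 (-0.48), Cntnap5b (-0.83) and Asic2 (-0.43). Against Excitatory neuron 2 they passed for March1 (0.85), Unc5d (0.60), Pard3 (0.83), Nr4a3 (2.37), Kcnb2 (0.39), Bcl11b (-0.94) and Egfem1 (-0.44). Nr4a3 was level in the cluster (-0.04 ± 0.17), and its fold in Excitatory neuron 2 was -2.25 ± 0.59. Its level in Excitatory neuron 2 was low, from 1.35 to 10.97 CPM over the libraries. With the Excitatory 4 nuclei alone the Nr4a3 difference was 2.30 and did not pass (edgeR adjusted p = 0.117). Injury folds differed from Excitatory neuron 1 for Nnat (0.81), Lingo2 (0.58) and Adamtsl1 (0.82), and from Excitatory neuron 2 for AC149090.1 (0.64). Side folds differed from Excitatory neuron 1 for Lrrtm4 (-0.77), Mctp1 (-0.74) and Slit2 (-0.82), and from Excitatory neuron 2 for Cntn5 (1.67).

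The share of nuclei in the cluster was higher with VEGFC in sham and lower in TBI right, a difference of 0.70 between the log2 ratios. Only the genes with the most extreme changes of the vector fold, of 3283, were looked at for opposite signs in sham and TBI right. Those with opposite signs, as TBI minus sham, were Ttr (-2.12), Apoe (-1.47), Las1l (-1.43), Cst3 (-1.42), Sav1 (-1.32), Bbx (1.18), Dpy19l3 (1.17), Slc12a2 (1.08), Sptb (1.05) and Lamc1 (1.05). The remaining genes were not screened by sign. Genes picked for an extreme change tend to have opposite signs, so the signs add no support. In all other nuclei together, the signs were the same for each listed gene but Apoe and Slc12a2. Sav1 was there at 97.3 CPM in Sham GFP right, 123 in Sham VEGFC right, 105 in TBI GFP right and 65.9 in TBI VEGFC right. Some changes there were small, as for Dpy19l3 (29.7, 29.6, 28.8 and 32.0 in the same order). The differences in this paragraph were not tested, since each combination is 1 library.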

How the results depend on the processing

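A replicate block could not be fitted because the libraries share no replicate numbers; VEGFC and GFP libraries were matched by context instead, and without the context term 0 genes passed in the whole cluster. With every group a single library, calls depend on few values. For the vector, leaving out either library of a context removes that pair, so those alternatives are nearly the same check. VEGFC against GFP in the whole cluster gave 0 genes, and 2 with library totals, 5 without a filter on low counts, 2 from nuclei with at least 2000 UMIs, 6 with equal numbers of nuclei, 2 with hemispheres as replicates, 5 in the Excitatory 4 nuclei, and 0 to 4 with a library left out. TBI right against sham right gave 2, and 4 without the filter, 1 with DESeq2, 1 with limma-voom, 1 thinned to 1000 UMIs, 5 with doublet scores of at most 0.05, 4 in the Excitatory 4 nuclei, and 1 to 5 with a library left out. TBI left against right gave 0, and 5 without the filter, 2 with equal numbers, 1 thinned, 1 in the Excitatory 4 nuclei, and 0 to 1 with a library left out.

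In the Excitatory 4 nuclei the vector gave 5 genes, 0 with library totals, 0 with DESeq2, 3 with limma-voom, and 2 to 54 with a library left out, the most without either sham library (53 and 54). The injury gave 4, 2 with library totals, 1 with DESeq2, and 1 to 46 with a library left out, the most without Sham GFP right. The side gave 1, then 0 with library totals, DESeq2 and limma-voom, and 0 to 1 with a library left out.

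Differences of folds for the vector gave 4 genes from Excitatory neuron 1 (0 in the Excitatory 4 nuclei, 0 to 1 with a library left out) and 7 from Excitatory neuron 2 (2, and 1 to 3). For injury they gave 3 (5 without the filter, 2 to 6 with a library left out) and 1 (0 to 5). For side they gave 3 (1 to 7) and 1 (2 without the filter, 0 in the Excitatory 4 nuclei, 0 to 1). The Asic2 difference from Excitatory neuron 1 turned to 0.012 in the Excitatory 4 nuclei. The cause of these changes was not tested.

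With doublet scores of at most 0.05, the log2 ratio of the cluster's share was -0.71 for TBI right over sham right (-0.06 with all nuclei). For left over right it was -0.20 (-0.27), and -0.35 with at least 2000 UMIs. The doublet limit kept 38 of the cluster's 138 nuclei in Sham GFP right and 240 of 291 in Sham VEGFC right. It kept 81 of 194 in TBI GFP right and 28 of 156 in TBI VEGFC right. The ratio of each pair under this limit is not given, so -0.71 is not a fall shown in both pairs. With a library left out, the ratios over all nuclei ran from -0.41 to 0.29 for injury, -0.31 to -0.23 for side and -0.07 to 0.28 for the vector. CA2-like shares of the cluster ran from -0.59 to -0.52 (vector), were -0.74 for injury (-0.78 with at least 2000 UMIs) and ran from -0.40 to -0.24 (side). Without thinning, 95.6%, 78.4%, 90.4% and 41.7% of nuclei held a Grik4, Nectin3, Cpne4 or Galnt3 UMI.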
